A study of Mus musculus with 5 samples.

Results

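Cell-cell adhesion genes were followed in the luminal layer of the mouse uterus across embryo attachment. The set consisted of 33 listed names: classical and other cadherins, catenins and their actin linkers, desmosomal genes, afadin, *Epcam* and *Ceacam1*. A gene was taken as a member when its symbol in the count table equalled a listed name. This rule uses no measured value, but the names were listed with earlier results of these data known. Afadin was listed under both its older symbol *Mllt4* and its current symbol *Afdn*, and the table held it once, as *Mllt4*, so that 32 of 23420 genes in the table were members. The nectins themselves, which afadin anchors, were not among the listed names and are described from a separate list. Of the 32 members, 26 averaged 1 CPM or more (counts per 1000000 counts of a library) across the 5 libraries and were tested, and 6 did not.

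The 5 libraries were made from wild-type C57BL/6N mice on day 3 morning, day 4 morning, day 4 evening and day 5 morning of pregnancy, with 1 library per condition. Day 5 morning was represented by a pair of libraries, 1 taken at a distance from the attached embryo (labelled M pole) and 1 from the part that surrounds it (labelled AM pole). The labels of all 5 name neither an engineered allele nor an agent. How many mice contributed to each library, and whether both day 5 libraries came from the same uteri, is not given in the sources used here. The pole and the nearness of the embryo cannot be told apart in the day 5 pair.

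As background, epithelial cells of the uterine lumen are held together by adherens junctions, desmosomes and tight junctions below the apical surface that meets the blastocyst. In an adherens junction the outer part of a classical cadherin binds a cadherin of the neighbouring cell, and its inner tail binds β-catenin or plakoglobin, which bind α-catenin and so actin, while p120-catenin keeps the cadherin at the surface. In a desmosome, desmogleins and desmocollins are tied to keratin filaments through plakoglobin, plakophilins and desmoplakin. Nectins form a parallel adhesion system that afadin ties to actin. The luminal epithelium is known to remodel these junctions before the blastocyst attaches and to be removed later around the embryo.

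The total counts ranged from 15334674 to 19529491 per library, and the features *Rn45s* and *Lars2* took 15.0 to 23.2% of them. A floor of 3 counts equals 0.161 to 0.190 CPM on library sizes scaled by TMM, the trimmed mean of M-values. All 9 epithelial markers (keratins, claudins, *Esrp1* and *Wfdc2*) were counted in every library, and their summed CPM lay between 5248 and 7494. The library around the embryo stood apart in its other markers, as the plot of marker lists shows. The summed CPM of 8 embryo markers was 96.8 there and 2.30 to 6.86 in the other libraries. *Pou5f1*, a gene of the inner cell mass, had 68 counts around the embryo and 0 in each other library, and *Cdx2* of the trophectoderm had 22 and 0. Markers of smooth muscle summed to 392 CPM around the embryo against 10.8 to 31.6 elsewhere, of which *Des* made 354 CPM. The sum of the leukocyte markers was lowest around the embryo, at 89.0 CPM against 241 to 357 elsewhere. That of the stromal markers was lowest there too, at 353 CPM against 465 to 553. Both lists were split. From day 4 evening 4 of 5 tested leukocyte markers fell and 1 rose, and 4 of 8 stromal markers fell and 3 rose. Of all tested genes 20.7% fell and 19.1% rose. *Cd68* was highest around the embryo at 38.9 CPM, as were *Hand2*, *Col1a1* and *Pdgfra* at 132, 46.2 and 37.7 CPM. The gland markers were low but highest there, at 12.8 CPM against 1.26 to 4.02 elsewhere. From day 4 evening 3 of 3 tested rose, where 19.1% of all tested genes did, but *Prss29* and *Spink3* passed the filter only through this library. *Foxa2* rose from 0 to 21 counts, and it had 32 and 51 on day 3 and day 4 morning. What part the cells of these marker lists had in any change around the embryo was not tested, and in bulk RNA a smaller number of cells of a type cannot be told apart from less RNA per cell.

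**Figure D1:**
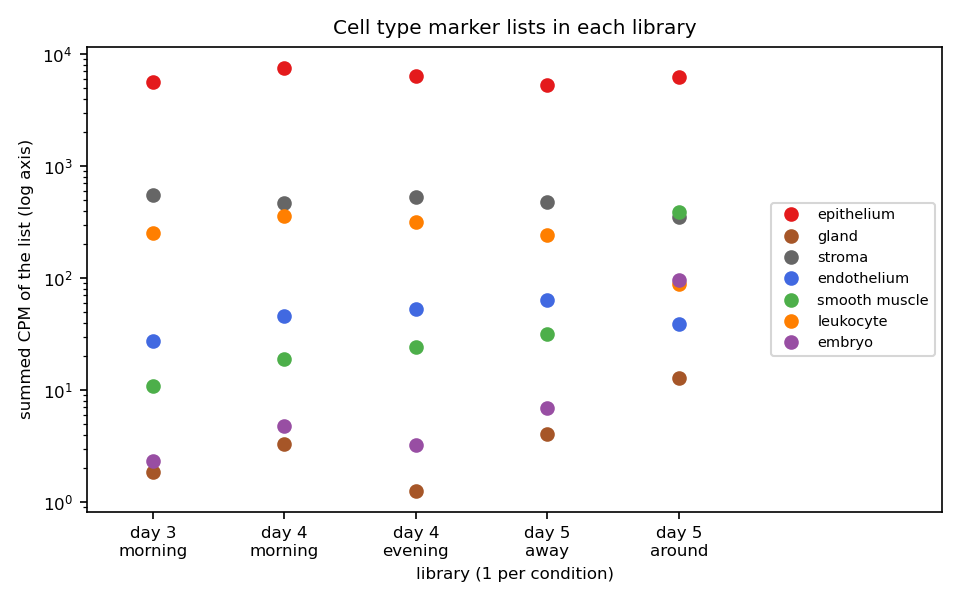
Summed CPM (log axis) of 7 lists of cell type markers in each of the 5 libraries, 1 point per list and library. Epithelial markers stay between 5248 and 7494 CPM, while embryo markers reach 96.8 CPM and smooth muscle markers 392 CPM in the library around the embryo.

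Differences between libraries are given as log2 changes of TMM-scaled counts with a prior count of 2, and the 95% interval in brackets, by the exact Clopper-Pearson method, is that of the ratio between both libraries' counts on the log2 scale. The intervals cover counting error only. With 1 library per condition no difference has a replicate check, so that a gene is said to have risen or fallen where its log2 change went beyond 1 in either direction ("past the fold"), which compares libraries and not conditions. Levels of different genes are compared only as RPKM (CPM divided by the gene length in kilobases).

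The members differed most in the comparisons that held the library around the embryo. Against day 4 evening, 15 of the 26 tested members rose around the embryo and 3 fell, or 57.7% and 11.5%, where 19.1% of 12915 tested genes rose and 20.7% fell. *Pkp1* and *Cdh13*, counted among the 15, passed the filter of 1 CPM only through the library around the embryo, so the filter favoured their calls. At a mean CPM of at least 5 the count was 12 higher and 3 lower. The library around the embryo also held the reads of embryo and smooth muscle markers, whose part in the count was not tested. The median log2 change of the members was 1.06, against -0.02 over all tested genes. In the layer away from the embryo, compared with the same day 4 evening library, 3 members rose and 2 fell, beside 12.9% and 12.7% of all genes, with a median of 0.08 against 0.01. Between the day 5 libraries, 17 members were higher past the fold around the embryo and 3 were lower, against 13.4% and 15% of all genes, and the medians were 1.15 and -0.05. The last count depended on the library scaling. With plain library totals, which move the median of all genes in this comparison to -0.36, it was 7 higher and 3 lower, and with the summed epithelial markers made equal, an alternative chosen after seeing the data, it was 9 and 3. The 7 members that stayed past the fold under totals were *Cdh1*, *Cdh2*, *Cdh5*, *Cdh13*, *Pkp1*, *Ceacam1* and *Pcdh1*. Of these, *Cdh13* and *Pkp1* passed the filter only through the library around the embryo, and *Cdh2* rested on 14 against 4 counts, with an interval from 0.25 to 3.98. *Ctnnd2*, among the 17, had 13 against 5 counts and an interval that included 0, from -0.09 to 3.33. For the layer around the embryo against day 4 evening, plain totals gave 12 higher and 4 lower, and equal epithelial markers gave 16 and 3.

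Before attachment the members moved little as a group. From day 3 morning to day 4 morning 2 members rose and 4 fell, beside 7.47% and 11.5% of all genes, with a median of -0.06 against 0.00, and 2 fell when the library around the embryo was left out of scaling and filter. From day 4 morning to day 4 evening 0 members rose and 1 fell, beside 7.21% and 6.95% of all genes, with a median of 0.08 against 0.00. The shares of members past the fold were thus near those of all genes until day 4 evening and away from the embryo, and the plot of these shares shows them apart only for the 2 comparisons that hold the library around the embryo.

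**Figure D2:**
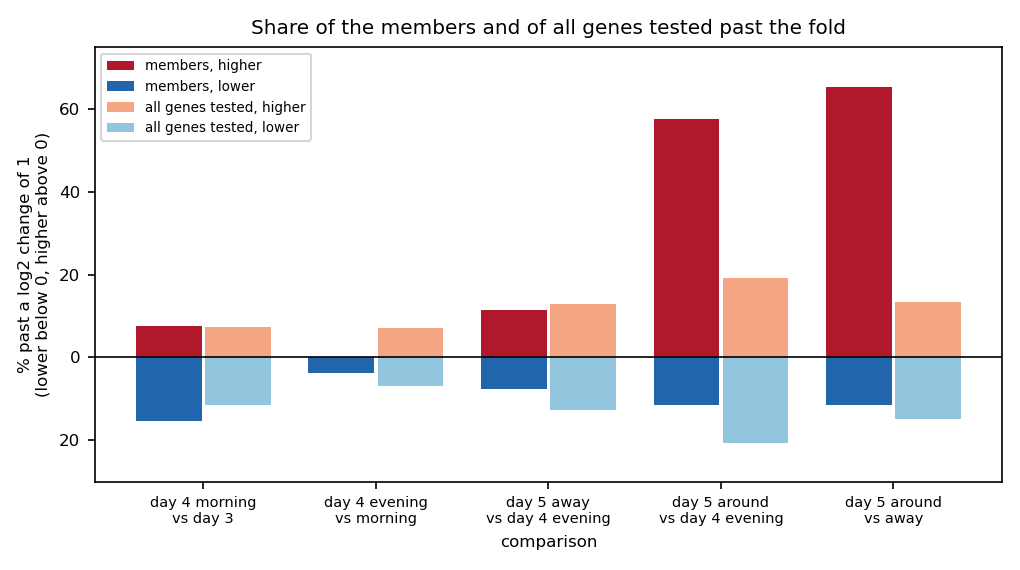
Percentage of the 26 tested members (dark bars) and of all 12915 tested genes (light bars) with a log2 change beyond 1, higher above 0 and lower below 0, in each of the 5 comparisons. The members' higher share is 57.7% and 65.4% in the comparisons that hold the library around the embryo, against 19.1% and 13.4% of all genes.

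Summed over all 32 members, the CPM came to 3427 on day 3 morning, 3321 and 3829 in the morning and evening of day 4, and 3785 and 7607 on day 5, away from and around the embryo. A total of 18 tested members had their highest level around the embryo, where 28.9% of all tested genes had theirs. The 18 include *Pkp1* and *Cdh13*, which passed the filter only through that library. The remaining 8 reached their highest level on day 3 morning (1 member), day 4 morning (2), day 4 evening (4) or away from the embryo (1). The members *Ctnnb1*, *Dsg2*, *Pkp2* and *Pcdh7* went past the fold in none of the comparisons.

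**Figure D3:**
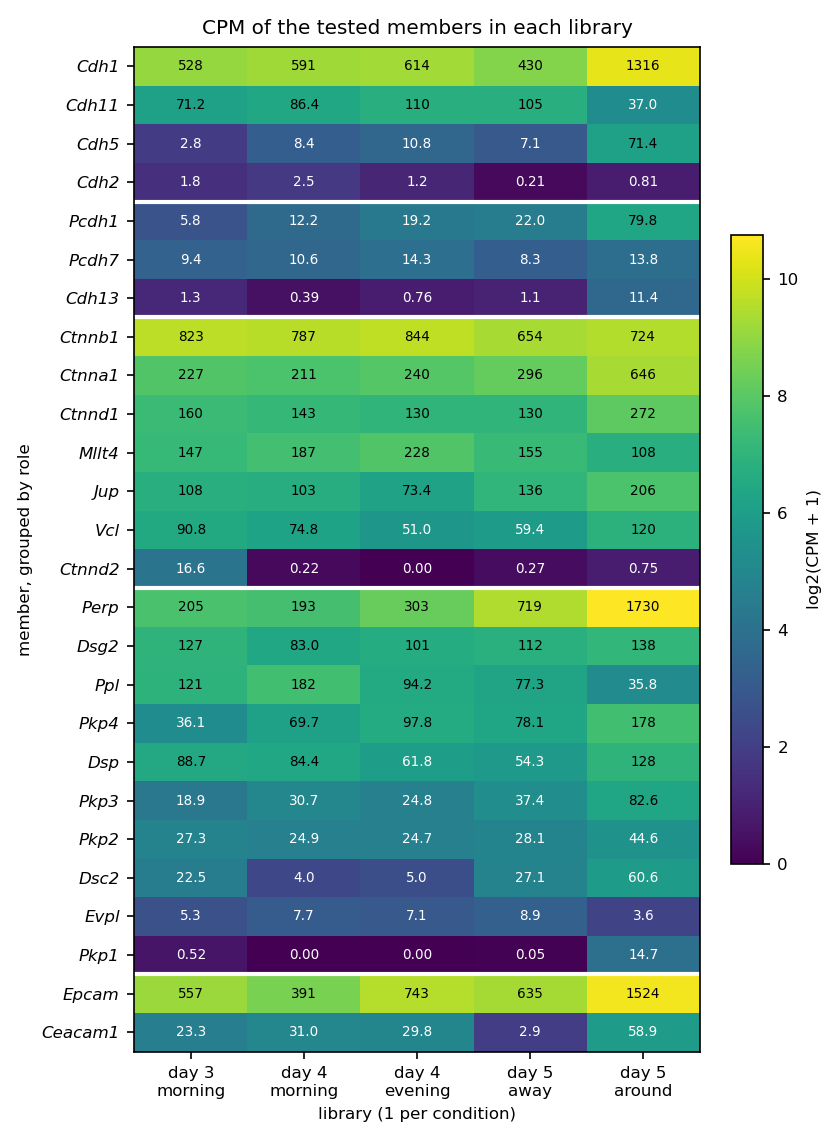
CPM of the 26 tested members (rows, grouped by role and separated by white lines) in the 5 libraries (columns), with colour as log2(CPM + 1) and the CPM printed in each cell. *Cdh1*, *Perp* and *Epcam* stand at 1316, 1730 and 1524 CPM around the embryo, and *Ctnnb1* stays between 654 and 844 CPM.

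Among the classical cadherins, *Cdh1* (E-cadherin, the main cadherin of epithelia, chr8:106603368-106670246 on GRCm38/mm10) was at 528 CPM on day 3 morning. On day 4 it was at 591 CPM in the morning and 614 in the evening, and on day 5 at 430 CPM away from the embryo but 1316 around it. Values of other members follow this order of libraries. It was lowest in one day 5 library and highest in the other. From day 4 evening its log2 change was -0.51 [-0.55, -0.47] away from the embryo, within the fold, and 1.10 [1.07, 1.13] around it, past the fold under TMM and 0.95 with totals that leave out *Rn45s* and *Lars2*. The day 5 libraries differed by 1.61 [1.57, 1.65], or 3.06-fold. The epithelial markers were also higher around the embryo on the whole. Between the day 5 libraries 7 of the 9 had a log2 change above 0, and their median was 0.93. Past the fold 4 were higher and 0 lower, where 13.4% of all tested genes were higher and 15% lower. The summed CPM of these markers was 5248 in the layer away from the embryo but 6214 around it, and *Cldn3* and *Wfdc2* changed by -0.58 and -0.62. The part of the epithelial markers in the difference of *Cdh1* was not tested.

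*Cdh11*, a cadherin of mesenchymal cells, ran opposite to *Cdh1* in the last library. Its CPM was 71.2, 86.4, 110 and 105 from day 3 morning to the layer away from the embryo and 37.0 around the embryo, where it fell by 1.57 [-1.70, -1.44] from day 4 evening. In RPKM *Cdh1* exceeded *Cdh11* by 7.09-fold, 6.54-fold, 5.32-fold and 3.92-fold in the first 4 libraries and by 33.9-fold around the embryo. The stromal markers beside it were split, with 4 of 8 lower past the fold from day 4 evening to the layer around the embryo (*Col1a2*, *Col3a1*, *Dcn* and *Lum*, by 1.58 to 3.51 on the log2 scale) and 3 higher (*Col1a1*, *Pdgfra* and *Hand2*). Of all tested genes 20.7% fell and 19.1% rose in this comparison. The part of the stromal markers in the fall of *Cdh11* was not tested.

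*Cdh5* (VE-cadherin, the cadherin of endothelial junctions, chr8:104101625-104144502) had 48, 150, 171 and 133 counts in the first 4 libraries and 1229 around the embryo. It rose by 1.56 [1.12, 2.10] from day 3 to day 4 morning and by 2.71 [2.49, 2.96] from day 4 evening to the layer around the embryo, and its log2 change away from the embryo, -0.59 [-0.94, -0.26], was within the fold. On day 4 morning 2 of 6 tested endothelial markers rose with it, *Pecam1* and *Tek*, where 7.47% of all tested genes rose. The summed CPM of the list went from 27.5 to 45.6. In the library around the embryo the markers were split. Of the 6, *Kdr*, *Tie1*, *Emcn* and *Cd34* fell there from day 4 evening, by 2.26, 1.60, 2.19 and 1.23 on the log2 scale, while *Pecam1* rose by 1.19 and *Tek* by 2.19. Of all tested genes 20.7% fell there and 19.1% rose. The summed CPM of the list was 38.8 around the embryo and 27.5 to 63.7 elsewhere, with none of its genes at 0. *Cdh2* (N-cadherin), by contrast, stayed low, at 31, 44, 19, 4 and 14 counts in the same order of libraries, and it fell from day 4 evening to the layer away from the embryo, with an interval of the log2 change from -4.50 to -0.90.

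The remaining cadherins reached at most 19.2 CPM before day 5. *Cdh13* (T-cadherin, which is anchored by a lipid and lacks the tail that binds catenins) had 22, 7, 12 and 20 counts in the first 4 libraries and 197 around the embryo, a rise of 3.73 [3.08, 4.89] from day 4 evening. Its fall from day 3 to day 4 morning, by 1.45 [-3.17, -0.42], rested on these few counts. *Pcdh1* (protocadherin 1, found at epithelial cell contacts) had 5.82, 12.2, 19.2 and 22.0 CPM before 79.8 CPM around the embryo, and rose there by 2.05 [1.88, 2.24]. The related *Pcdh7* had 8.26 to 14.3 CPM in all libraries and was past the fold in no comparison. Under the filter, *Cdh3* (P-cadherin) had 2 to 16 counts and *Cdh17* (a cadherin of intestinal epithelium) 0 to 18. *Cdh16* had at most 13 counts, *Cdh6* at most 2, *Ctnna2* at most 1 and the desmocollin *Dsc3* at most 7, and these 6 members entered no count of changes.

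The catenins did not change together. *Ctnnb1* (β-catenin, chr9:120933400-120960507), which both links cadherins to α-catenin and carries Wnt signals to the nucleus, had 823, 787, 844, 654 and 724 CPM from day 3 morning to the layer around the embryo. Its highest level was 1.29-fold its lowest, the narrowest range among the tested members. From day 4 evening it changed by -0.37 [-0.40, -0.33] away from the embryo but by -0.22 [-0.26, -0.19] around it. *Ctnna1* (α-catenin, the link to actin) had 227, 211, 240, 296 and 646 CPM, and rose around the embryo by 1.42 [1.37, 1.48]. *Ctnnd1* (p120-catenin, which protects cadherins from removal) had 160, 143, 130, 130 and 272 CPM and rose there by 1.07 [0.99, 1.14], though by 0.98 with library totals. *Jup* (plakoglobin, shared by adherens junctions and desmosomes, chr11:100368856-100397790) had 108, 103, 73.4, 136 and 206 CPM. It rose by 1.49 [1.40, 1.59] around the embryo, and away from it the change of 0.89 [0.79, 0.99] stayed within the fold but reached 1.11 with library totals.

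The ratios among transcripts of the adherens complex differed between libraries. Per length, *Cdh1* stood at 0.527, 0.616, 0.597 and 0.540 of *Ctnnb1* in the first 4 libraries and at 1.49 around the embryo, the only library in which the cadherin exceeded β-catenin. The ratio of *Ctnnb1* to *Ctnna1* in RPKM was 3.68, 3.79, 3.56, 2.25 and 1.14. That of *Ctnnb1* to *Jup*, its relative that can take its place on cadherins, was 10.5, 10.5, 15.9, 6.66 and 4.85. These ratios are taken within a library and do not depend on the library scaling.

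**Figure D4:**
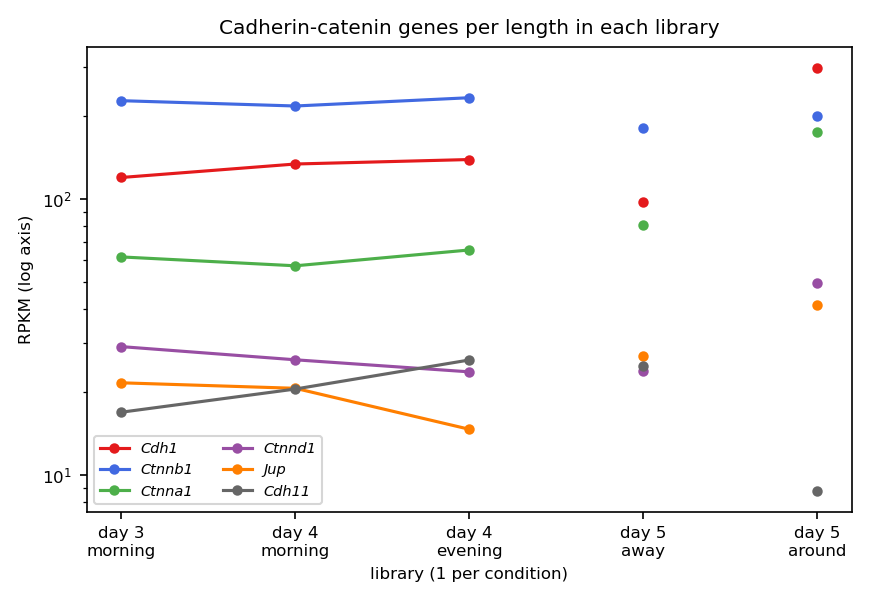
RPKM (log axis) of 6 cadherin and catenin genes in each library, with lines joining the 3 libraries before day 5. *Cdh1* passes *Ctnnb1* only around the embryo, where *Ctnna1* comes near to *Ctnnb1* (175.6 and 199.8 RPKM) and *Cdh11* is lowest.

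*Ctnnd2* (δ-catenin, a relative of p120-catenin best known from neurons) was the tested member that was highest on day 3. Its counts were 288 on day 3 morning, 4 and then 0 on day 4, and on day 5 there were 5 away from the embryo but 13 around it. The fall from day 3 to day 4 morning was 5.63 [-8.10, -4.85] on the log2 scale. Later changes of *Ctnnd2* went past the fold on very few counts. The level around the embryo was at least 3.98-fold higher than the floor of 3 counts on day 4 evening, and the intervals of the other changes after day 4 morning included 0.

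Of the actin linkers, *Vcl* (vinculin, recruited to α-catenin under tension) had 90.8, 74.8, 51.0, 59.4 and 120 CPM. It was lowest on day 4 evening and rose by 1.24 [1.12, 1.36] from there to the layer around the embryo. *Mllt4* (afadin) went the other way, with 147, 187, 228, 155 and 108 CPM. It fell by 1.07 [-1.16, -0.99] from its peak on day 4 evening to the layer around the embryo, and the change away from the embryo was -0.55 [-0.63, -0.48].

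Among the 10 tested desmosomal members, 5 rose and 1 fell from day 4 evening to the layer around the embryo, 2 rose and 0 fell in the layer away from it, beside 19.1% and 20.7% of all genes around it and 12.9% and 12.7% away from it. The 5 include *Pkp1*, which passed the filter only through the library around the embryo. The summed CPM of all 11 desmosomal members was 653, 680, 720, 1142 and 2417. *Dsc2* (desmocollin 2, one of the desmosomal cadherins) went past the fold in 4 of the 5 comparisons. Its counts were 390 on day 3 morning, 72 and 79 on day 4, and on day 5 there were 506 away from the embryo but 1044 around it. It fell by 2.45 [-2.87, -2.12] into day 4 and rose by 2.41 [2.10, 2.80] away from the embryo but by 3.57 [3.27, 3.95] around it. Its partner *Dsg2* (desmoglein 2) had 2213, 1490, 1604, 2092 and 2381 counts and was past the fold in no comparison. The ends of the desmocollin range lay 15.1-fold apart, and those of the desmoglein 1.67-fold.

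*Perp* (a tetraspan membrane protein needed for desmosomes in stratified epithelia, chr10:18845071-18857072) had 205, 193, 303, 719 and 1730 CPM. It was past the fold both away from the embryo, with a rise of 1.24 [1.20, 1.29], and around it, with a rise of 2.51 [2.47, 2.56]. It passed *Ctnnb1* and *Epcam* in RPKM to become the highest member in both day 5 libraries, at 378 and 911 RPKM. *Dsp* (desmoplakin, the link to keratins) did not follow *Perp* away from the embryo. It had 88.7, 84.4, 61.8, 54.3 and 128 CPM, with a change of -0.19 [-0.32, -0.06] away from the embryo but 1.05 [0.94, 1.16] around it. With library totals these were 0.04 and 0.96. The ratio of *Perp* to *Dsp* in RPKM was 11.6 and 11.5 on the first 2 mornings, 24.8 on day 4 evening, and on day 5 it was 66.8 and 68.2 away from and around the embryo.

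The plakophilins, armadillo proteins of the desmosomal plaque, differed in how strongly they were counted around the embryo. *Pkp1* (chr1:135871395-135919024), best known from stratified epithelia, had 9, 0, 0 and 1 counts in the first 4 libraries and 253 around the embryo. It was at least 77.5-fold higher there than the floor of 3 counts on day 4 evening. Against the single count away from the embryo the ratio was 274, with an interval from 48.7 upward. *Pkp3* had 18.9, 30.7, 24.8, 37.4 and 82.6 CPM and rose by 1.73 [1.57, 1.90] around the embryo. *Pkp2*, the plakophilin of simple epithelia and heart, had 27.3, 24.9, 24.7, 28.1 and 44.6 CPM and did not pass the fold. *Pkp4*, a relative found at both kinds of junction, had 36.1, 69.7, 97.8, 78.1 and 178 CPM. Its change from day 4 evening to the layer around the embryo was 0.86 [0.77, 0.95], while between the day 5 libraries it was 1.18 [1.10, 1.28].

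The plakins periplakin and envoplakin, which connect desmosomes and the cell cortex to filaments, were lower around the embryo than away from it. *Ppl* had 121, 182, 94.2, 77.3 and 35.8 CPM and fell by 1.39 [-1.53, -1.26] from day 4 evening to the layer around the embryo, after a change of -0.95 [-1.04, -0.86] within day 4. *Evpl* had 92, 139, 113, 166 and 62 counts. It differed by -1.28 [-1.75, -0.88] between the day 5 libraries and by -0.97 [-1.46, -0.53] from day 4 evening.

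**Figure D5:**
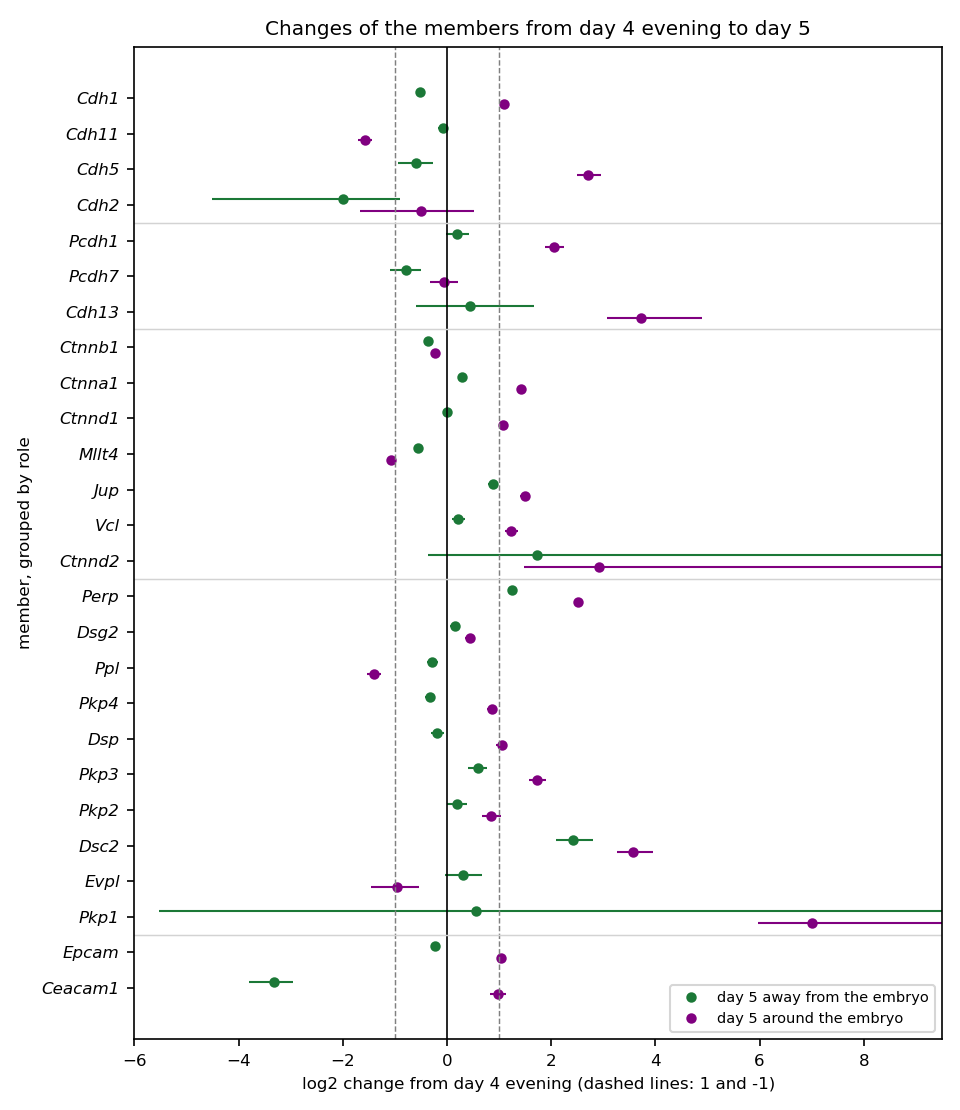
Log2 change of each tested member from day 4 evening to the layer away from the embryo (green) and around it (purple), grouped by role, with the 95% counting interval as a line and dashed lines at 1 and -1. Lines that reach the right edge are open intervals, because the day 4 evening library had 0 counts of *Ctnnd2* and *Pkp1*.

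*Epcam*, an epithelial surface molecule that is also a common marker of carcinoma cells, was on average the highest member per length, at 270, 190, 361, 308 and 739 RPKM. In CPM it had 557, 391, 743, 635 and 1524. From day 4 evening it changed by -0.23 [-0.26, -0.19] away from the embryo but by 1.04 [1.00, 1.07] around it, the latter 0.95 with library totals. *Ceacam1*, an immunoglobulin-type adhesion molecule of epithelia and leukocytes (chr7:25461702-25477625), fell more than any other tested member in the layer away from the embryo. It had 405, 556 and 472 counts before day 5, then 54 away from the embryo but 1015 around it. The fall away from the embryo was 3.31 [-3.80, -2.96], and the day 5 libraries differed by 4.29 [3.95, 4.77]. The summed CPM of the leukocyte markers was 317 on day 4 evening, 241 in the layer away from the embryo and 89.0 around it. Of the 5 tested, 4 fell from day 4 evening to the layer around the embryo and 1, *Cd68*, rose by 1.95. Of all tested genes 20.7% fell and 19.1% rose in this comparison. Away from the embryo none of the 5 passed the fold, where 12.9% of all tested genes rose and 12.7% fell. The part of the leukocyte markers in the changes of *Ceacam1* was not tested.

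Windows of 250 bases upstream of RefSeq start sites on GRCm38.p6 were searched on both strands for the E-box CACCTG, which Snail and Zeb repressors of cadherins bind, for the STAT motif TTCNNNGAA and for the GC box GGGCGG. A window was at hand for 11 of the 26 tested members. The E-box was in a window of 2 of them (*Epcam* and *Pkp4*), the STAT motif in 0 and the GC box in 7, where 17.2%, 7.02% and 32.7% of 32851 windows of all genes held these motifs. A gene with several start sites has several windows, so that these counts per gene are not strictly comparable with shares of windows. The windows of 3 members that rose around the embryo are shown, a surface molecule, a catenin and a desmosomal linker, with E-boxes and GC boxes of either strand in capitals, and they share GC boxes while only *Epcam* (chr17:87635729-87635978, plus strand) has E-boxes. The window of *Jup* is chr11:100397791-100398040 on the minus strand and that of *Dsp* is chr13:38151044-38151293 on the plus strand. In the shown windows no E-box overlaps a GC box. GC boxes were not confined to members that rose. Among the windows not shown, that of *Mllt4*, which fell around the embryo, had 4, and that of *Vcl*, which rose, also had 4. *Ctnnb1*, within the fold, had 3 and 2 in its windows, and *Ctnnd1* and *Ctnnd2*, which rose, had 0.
Epcam: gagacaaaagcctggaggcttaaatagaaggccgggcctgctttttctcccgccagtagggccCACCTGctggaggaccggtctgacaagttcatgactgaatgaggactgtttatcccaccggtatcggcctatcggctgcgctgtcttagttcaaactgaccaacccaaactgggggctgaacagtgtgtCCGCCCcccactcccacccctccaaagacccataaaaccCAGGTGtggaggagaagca
Jup: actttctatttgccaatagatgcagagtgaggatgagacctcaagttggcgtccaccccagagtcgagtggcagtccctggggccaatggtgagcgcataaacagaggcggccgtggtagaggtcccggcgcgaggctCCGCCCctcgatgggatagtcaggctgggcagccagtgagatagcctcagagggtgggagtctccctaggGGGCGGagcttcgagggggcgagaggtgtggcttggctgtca
Dsp: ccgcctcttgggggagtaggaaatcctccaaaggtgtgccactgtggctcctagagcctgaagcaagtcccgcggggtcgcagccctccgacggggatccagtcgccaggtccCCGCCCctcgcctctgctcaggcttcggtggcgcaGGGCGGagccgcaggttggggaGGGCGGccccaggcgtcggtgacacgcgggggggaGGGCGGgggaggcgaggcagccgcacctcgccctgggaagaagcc
A match is a description of letters, and no binding was measured.

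Of the 10 listed repressors of epithelial cadherin, 4 rose and 2 fell from day 4 evening to the layer around the embryo, and 3 rose and 2 fell away from it, beside 19.1% and 20.7% of all genes around it and 12.9% and 12.7% away from it. *Tcf4*, an E-box factor, had 73.2, 78.8, 102, 251 and 290 CPM. *Klf8* had 154, 213, 88, 7 and 42 counts, and *Snai3* had 33, 8, 56, 15 and 56. *Snai1*, the founding member of the Snail repressors, was named after its values had been seen, and it had 27, 50, 62, 209 and 145 counts. The 3 that rose away from the embryo, *Snai1* and *Tcf4* among them, also rose around it, and *Klf8* fell in both day 5 libraries. *Cdh1* was lowest away from the embryo and highest around it, and the part of these repressors in its levels was not tested.

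The nectins and nectin-like genes are named by their older *Pvrl* symbols in the table. Of 7 tested, 0 rose and 4 fell from day 3 to day 4 morning, 2 rose and 0 fell within day 4, 2 rose and 0 fell away from the embryo, and 4 rose and 0 fell around it. The shares of all genes that rose and fell in these comparisons were 7.47% and 11.5%, 7.21% and 6.95%, 12.9% and 12.7%, and 19.1% and 20.7%. The medians of the list in these comparisons were -1.28, 0.49, 0.65 and 1.45. *Pvrl2* (nectin-2), the highest of them per length, had 209, 244, 197, 350 and 306 CPM and was past the fold in no comparison. *Cadm1*, a nectin-like molecule, had 63.1, 16.0, 29.4, 161 and 168 CPM, with like levels in both day 5 libraries. *Pvrl1* (nectin-1) was scarce, at 42, 5, 3, 33 and 67 counts. Afadin, the cytoplasmic partner of the nectins, was highest on day 4 evening.

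Of the 3 tested genes among 8 other desmosomal genes, *Dsg3*, a desmoglein of stratified epithelia, had 7, 7, 22, 149 and 734 counts. It was past the fold in the same direction as *Pkp1* around the embryo, and unlike *Pkp1* it was also past the fold away from it, at 2.43 on the log2 scale. *Plec* (plectin, a linker of keratin filaments) had 82.2, 124, 129, 140 and 400 CPM, and *Dst* (dystonin) 39.2, 29.6, 47.7, 73.1 and 32.3.

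Among 19 tested adaptors of adherens junctions and partners of catenins, 4 rose and 3 fell away from the embryo and 6 rose and 3 fell around it. These shares were 21.1% and 15.8% away and 31.6% and 15.8% around, against 12.9% and 12.7%, and 19.1% and 20.7%, of all genes. Of these adaptors *Pdlim1*, a LIM protein of actin fibres, had 525, 716, 259, 72.2 and 80.3 CPM. *Lima1* (eplin, an actin partner of α-catenin) had 324, 427, 313, 170 and 139 CPM, and *Kifc3*, a motor that travels to junctions, 32, 32, 11, 83 and 273 counts. Both *Pdlim1* and *Lima1* were thus lowest in the day 5 libraries, where *Ctnna1* was highest. Of 9 tested other cadherins, 2 rose and 4 fell around the embryo, beside 19.1% and 20.7% of all genes. *Fat1* was between 31.2 and 46.8 CPM throughout, *Cdh4* (R-cadherin) had 377, 28, 0, 0 and 28 counts, and *Fat3* had 95, 3, 34, 0 and 0. Like *Ctnnd2*, *Cdh4* was highest on day 3 morning.

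The genes of cadherin turnover were largely within the fold until day 5. Of 11, 1 rose and 1 fell away from the embryo and 4 rose and 1 fell around it. Away from the embryo their shares, 9.09% and 9.09%, were below the 12.9% and 12.7% of all genes, and around it they were 36.4% and 9.09% against 19.1% and 20.7%. *Rab11a*, a recycling GTPase that returns E-cadherin to the lateral membrane, had 298, 328, 325, 1017 and 1161 CPM, past the fold in both day 5 libraries, unlike *Cdh1*. *Arf6*, a GTPase of endocytosis, had 224, 183, 194, 170 and 356 CPM, and *Adam10*, a protease that sheds E-cadherin, 212, 134, 146, 109 and 274. The level of these 2 was lowest away from the embryo and highest around it, as that of *Cdh1* was.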

How the data were processed

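Luminal layers of wild-type uteri were profiled by RNA-seq in 5 libraries. The study's methods describe laser microdissection for other mice, with and without *Lif* in the uterine epithelium, on day 4 evening. RNA of independent samples was pooled within each of those groups. Whether the wild-type libraries were pooled likewise is not stated there. The methods also describe SMART-seq v.4 amplification, paired-end reads, mapping by HISAT2 (GRCm38/mm10) and read counting by featureCounts (Subread 2.0.0). The authors deposited raw counts per gene, without normalization. The annotation, strand setting and handling of reads with several alignments are not given in the sources used here. All count columns were matched to samples by name (0 left unmatched).

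Counts were scaled by TMM in edgeR 4.0.16 (R 4.3.3), and the filter kept the 12915 of 23420 genes that averaged 1 CPM or more. Changes are log2 CPM differences with a prior count of 2. A call is a log2 change beyond 1, with no test, because 1 library per condition gives no spread. Intervals came from scipy 1.17.1 and plots from matplotlib 3.10.9. RPKM used the gene lengths in the table. Alternatives were DESeq2 1.42.0 size factors, library totals with and without *Rn45s* and *Lars2*, other filters, a prior count of 0.5, a log2 change beyond 2 and the exact test of edgeR at fixed dispersions of 0.1 and 0.4.

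Members and lists were chosen with earlier results of these data known. Full values are given for members past the fold in any comparison or among the 5 highest in mean RPKM. For the lists they are given for at most 3 genes per list, those with the highest mean CPM or past the fold most often. *Snai1* and the genes named from the cell type marker lists fall outside this rule. All 32 members matched protein-coding RefSeq genes at the same place. Promoter windows came from RefSeq on GRCm38.p6.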

Additional observations from a re-analysis of the deposited data

Results flagged for a closer look

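For 6 tested members the log2 changes of the 2 day 5 libraries from the same day 4 evening library had opposite signs, with both counting intervals free of 0. The difference was not tested, each side is 1 library, and both changes share the day 4 evening counts. The rule was applied to the members only, and the share of all tested genes that meet it was not counted. At high counts the intervals are narrow, so that small changes can meet it. In the order away and around, the log2 changes were -0.51 and 1.10 for *Cdh1*, -0.59 and 2.71 for *Cdh5*, and -3.31 and 0.98 for *Ceacam1*. They were -0.19 and 1.05 for *Dsp*, -0.32 and 0.86 for *Pkp4*, and -0.23 and 1.04 for *Epcam*. Of the values away from the embryo, that of *Ceacam1* alone was past the fold. With library totals that of *Dsp* was 0.04, so that its opposite sign depended on the scaling, and that of *Epcam* was -0.0016. *Evpl* also had opposite signs, 0.31 and -0.97, but its interval away from the embryo included 0.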

How the results depend on the processing

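The counts of members past the fold (higher and lower) were recomputed under 13 settings, of which 4 were chosen after seeing the data. With DESeq2 size factors 10 of 10 counts stayed within 1.5 times. From day 3 to day 4 morning the 2 higher members became 1 with library totals, 1 with totals without *Rn45s* and *Lars2*, 1 with epithelial markers made equal, and 0 beyond a log2 change of 2 and in the exact test at either dispersion. The 4 lower became 1 at a mean CPM of at least 5, 2 without the library around the embryo in scaling and filter, and 2 and 0 in the exact test at dispersions of 0.1 and 0.4. Within day 4 the 0 higher became 2 with epithelial markers made equal, and the 1 lower (*Ctnnd2*) became 3 without the filter, 2 with a prior count of 0.5, and 0 at a mean CPM of at least 5, beyond a log2 change of 2, in both exact tests and where the counting interval had to exclude 0. Away from the embryo the 3 higher became 5 without the filter, 1 beyond a log2 change of 2, and 1 and 0 in the exact tests, and the 2 lower became 1 at a mean CPM of at least 5, 1 beyond a log2 change of 2, and 1 and 0 in the exact tests. Around the embryo against day 4 evening the 15 higher became 7 beyond a log2 change of 2, and 7 and 1 in the exact tests, and the 3 lower became 0 in each of these. Between the day 5 libraries the 17 higher became 7 with totals, 7 with totals without *Rn45s* and *Lars2*, 9 with epithelial markers made equal, 4 beyond a log2 change of 2, and 4 and 1 in the exact tests, and the 3 lower became 0 in the last 3 of these. The stricter rules and filters call fewer genes by their construction. Another scaling shifts the log2 changes of all genes in a comparison by nearly the same amount, for the members by at most 0.31 with library totals. Which scaling lies nearer to the true levels was not tested. With day 4 morning as the base, 12 members were higher and 4 lower around the embryo, and 3 and 3 away from it. No called change of a member turned its sign under another scaling or prior count, while 9 uncalled ones did with library totals. With totals the median of all genes stood at -0.28 from day 3 to day 4 morning, at 0.23 away from the embryo and at -0.36 between the day 5 libraries (0.00, 0.01 and -0.05 with TMM), and the share of higher among all calls went from 39.5 to 19.9%, from 50.5 to 63.8% and from 47.2 to 31.7%. No paired analysis was possible because there was 1 library per condition, and for the same reason no replicate could be left out. Depth limits the members under about 20 counts.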
